A study of Mus musculus with 10 samples.

Results

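Named antisense RNAs are genes that the deposited table types as antisense_RNA and that carry a symbol other than Gm followed by a digit. The table held 18464 genes, 409 of them typed as antisense RNAs, and 205 of those had such a symbol. Of the 205, 118 carried a RIKEN clone symbol ending in Rik, 23 a genomic clone symbol, and 64 another symbol, often that of the gene across from them followed by os, as or ot. Each was paired with every protein-coding gene of the table on the opposite strand whose span overlapped its own. A partner was found for 181, and 24 had none in the table. The pairs numbered 231 with 230 distinct partner genes, since Nkx2-2 lay across from 2 antisense RNAs and 26 antisense RNAs had more than 1 partner.

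The study profiled polyA RNA from the ventral midbrain (SNpc and VTA, which hold the dopamine neurons) of naive Aldh1l1-NuTRAP mice. In these animals an Aldh1l1-driven tag marks ribosomes, so pulling the tag down enriches the ribosome-bound RNA of cells that use this astrocyte promoter. There were 5 libraries of the astrocyte fraction and 5 libraries of input RNA, which holds all cell types of the same dissection, and all 10 carried the same genotype with no treatment named. The labels give no age, and they do not say whether the numbers 88, 92, 976, 981 and 982, each shared by 1 fraction and 1 input, are separate animals, so p-values measure the spread between these libraries.

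Antisense RNAs are transcribed from the strand opposite a gene. Pairs were called divergent where the antisense RNA starts inside the coding gene and runs back out across the gene's start. They were called convergent where it starts beyond the gene and runs into the gene's end. Antisense RNAs can also lie wholly within a gene or enclose it. Some act on the gene they overlap, as imprinted silencing RNAs such as Kcnq1ot1 and Airn do for neighbouring genes, while for most members no role has been described. Many long noncoding RNAs stay in the nucleus, and a ribosome pull-down compares RNA that is bound to tagged ribosomes with RNA from whole tissue.

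The promoters of 4 divergent pairs are given because the results below turn on how such pairs moved: 2 pairs that moved together and 2 that moved apart. Each window runs from 250 bases before the RefSeq start to 50 bases after it, on the strand of the gene, 5′ to 3′, from RefSeq on the build GRCm38.p6 (mm10). Capitals mark the GC box, searched as GGGCGG and as CCGCCC, its reverse complement. Copies can overlap each other, as in Pcsk2. The antisense RNA 4933431E20Rik and Gstm5 both rose in the astrocyte fraction.
4933431E20Rik, chr3:107896164-107896463, minus strand: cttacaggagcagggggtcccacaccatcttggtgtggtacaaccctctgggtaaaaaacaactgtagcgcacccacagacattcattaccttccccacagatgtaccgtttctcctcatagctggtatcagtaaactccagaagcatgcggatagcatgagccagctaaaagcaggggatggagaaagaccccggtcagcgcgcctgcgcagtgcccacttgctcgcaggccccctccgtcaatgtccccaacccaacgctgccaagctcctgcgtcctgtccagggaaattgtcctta
Gstm5, chr3:107895604-107895903, plus strand: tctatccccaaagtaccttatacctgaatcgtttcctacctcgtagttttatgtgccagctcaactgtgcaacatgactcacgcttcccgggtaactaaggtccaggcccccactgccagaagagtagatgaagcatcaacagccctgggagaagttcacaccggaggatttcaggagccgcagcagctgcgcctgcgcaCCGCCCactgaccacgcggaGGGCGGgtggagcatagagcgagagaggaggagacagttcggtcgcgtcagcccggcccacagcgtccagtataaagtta
Pcsk2os1 and Pcsk2 both fell.
Pcsk2os1, chr2:143547788-143548087, minus strand: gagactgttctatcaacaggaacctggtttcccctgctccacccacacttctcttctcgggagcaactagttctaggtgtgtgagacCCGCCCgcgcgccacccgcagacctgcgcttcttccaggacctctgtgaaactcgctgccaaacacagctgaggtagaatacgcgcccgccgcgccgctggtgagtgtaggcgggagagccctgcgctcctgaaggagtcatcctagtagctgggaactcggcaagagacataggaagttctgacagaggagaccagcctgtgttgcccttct
Pcsk2, chr2:143545883-143546182, plus strand: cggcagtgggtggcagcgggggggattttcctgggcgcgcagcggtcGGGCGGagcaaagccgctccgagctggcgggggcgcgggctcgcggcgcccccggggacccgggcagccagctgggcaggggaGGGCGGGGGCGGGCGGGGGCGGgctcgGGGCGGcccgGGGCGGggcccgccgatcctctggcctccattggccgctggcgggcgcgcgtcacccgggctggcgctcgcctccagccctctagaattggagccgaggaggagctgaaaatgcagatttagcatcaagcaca
Zbtb11os1 rose while Zbtb11 fell.
Zbtb11os1, chr16:55974568-55974867, minus strand: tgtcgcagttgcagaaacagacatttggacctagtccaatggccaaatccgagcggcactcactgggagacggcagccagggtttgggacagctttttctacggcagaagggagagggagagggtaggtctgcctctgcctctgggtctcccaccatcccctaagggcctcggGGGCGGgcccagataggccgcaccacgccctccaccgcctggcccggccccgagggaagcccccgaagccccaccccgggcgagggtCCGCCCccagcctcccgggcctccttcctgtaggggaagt
Zbtb11, chr16:55973554-55973853, plus strand: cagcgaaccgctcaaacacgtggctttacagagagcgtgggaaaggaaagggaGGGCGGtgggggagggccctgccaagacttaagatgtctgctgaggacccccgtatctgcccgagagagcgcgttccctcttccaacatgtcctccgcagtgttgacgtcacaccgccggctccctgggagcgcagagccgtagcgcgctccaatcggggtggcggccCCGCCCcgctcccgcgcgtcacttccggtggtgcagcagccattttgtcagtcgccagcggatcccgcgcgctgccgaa
1700034H15Rik fell while Slc30a1 rose.
1700034H15Rik, chr1:191907478-191907777, minus strand: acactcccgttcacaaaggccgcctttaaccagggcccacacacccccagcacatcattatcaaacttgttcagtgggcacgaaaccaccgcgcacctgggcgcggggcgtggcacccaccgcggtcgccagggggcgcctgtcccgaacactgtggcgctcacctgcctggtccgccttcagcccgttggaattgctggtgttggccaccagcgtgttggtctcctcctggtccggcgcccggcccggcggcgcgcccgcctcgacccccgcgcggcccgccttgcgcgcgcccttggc
Slc30a1, chr1:191906531-191906830, plus strand: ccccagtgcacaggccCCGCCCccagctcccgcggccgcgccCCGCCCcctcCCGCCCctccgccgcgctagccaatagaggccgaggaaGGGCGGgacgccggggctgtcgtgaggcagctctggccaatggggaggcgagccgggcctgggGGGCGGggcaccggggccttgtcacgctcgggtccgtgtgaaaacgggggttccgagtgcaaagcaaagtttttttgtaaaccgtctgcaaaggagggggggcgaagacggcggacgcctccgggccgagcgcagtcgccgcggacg
The GC box was present in 6 of these 8 windows and absent from those of 4933431E20Rik and 1700034H15Rik, so each kind of pair held windows with and without it. Among all 32851 RefSeq windows of this length, 35.7% held it. The nearer background is that of windows within 100 bases of the start of a gene of the table, and 63.5% of these held it.

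The astrocyte fractions held 3845554 estimated counts in library 92 and 24479136 to 26924406 in the other 4, and the inputs held 21812193 to 30878894. In fraction 92 a level of 3 counts is 0.880 CPM (CPM being estimated counts scaled to library size with TMM factors), so low antisense RNAs were poorly resolved there. In the other libraries the same 3 counts are 0.0912 to 0.136 CPM. Markers of the labelled cell type were high in the astrocyte fraction: 10 of 10 astrocyte markers rose, by a median of 3.05 on the log2 scale, while 10 of 10 neuron, 8 of 8 oligodendrocyte and 8 of 8 microglia markers fell. Of 6 endothelial markers 3 fell and 3 passed in neither direction, with a median of -0.34. Markers of choroid plexus and ependyma summed to 12344 and 2600 CPM in fractions 976 and 982 and to 3236 and 684 CPM in inputs 976 and 982, against at most 109 CPM in any other library. Their part in the results below was not tested, other than by leaving these libraries out. In such bulk RNA, fewer cells of a type and less RNA per cell cannot be told apart.

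Of the 205 named antisense RNAs, 192 had enough counts to be tested and 13 did not. With edgeR's quasi-likelihood test over all 17672 tested genes, 60 (31.25%) rose and 74 (38.5%) fell in the astrocyte fraction (Benjamini-Hochberg adjustment, threshold 0.05), and 58 passed in neither direction. Over all genes tested, 70.6% were called, 33.1% higher and 37.5% lower, so the members' shares lay close to this background. Their median change was -0.23 on the log2 scale, against -0.06 for all genes. The groups did not overlap in CPM for 93 of the 192 members (48.4%), against 58.2% of all genes. Of these members 66 were called and had a mean of at least 1 CPM, 37 of them higher and 29 lower. The other antisense RNAs of the table, with Gm symbols, had 52 higher and 73 lower of 174 tested, with a median of -0.48. Long intergenic RNAs had 104 higher and 245 lower of 469, with a median of -0.85, and protein-coding genes 5158 higher and 5715 lower of 14579, with a median of -0.07.

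**Figure D1:**
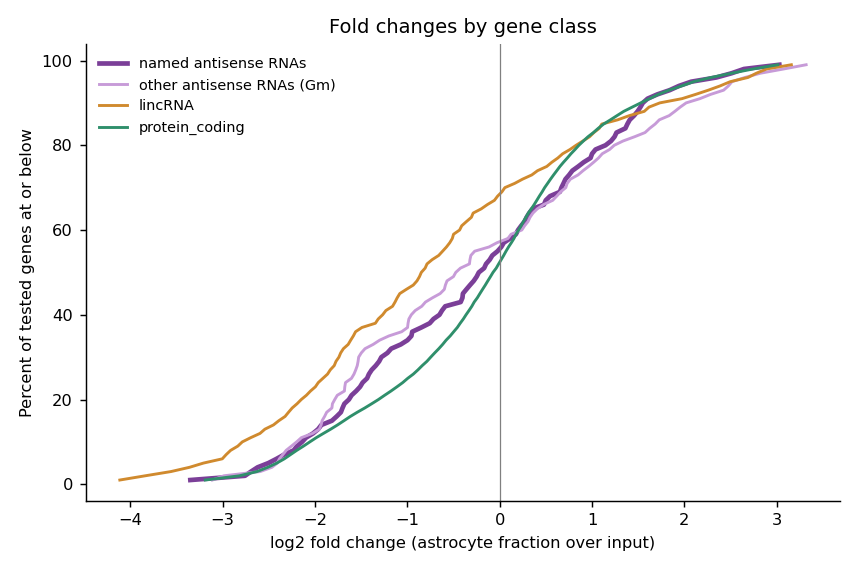
Cumulative percent of tested genes (y axis) at or below each log2 fold change of astrocyte fraction over input (x axis), drawn at percentiles 1 to 99, for 192 named antisense RNAs, 174 other antisense RNAs, 469 long intergenic RNAs and 14579 protein-coding genes. At 50% the curve of the named antisense RNAs (median -0.23) lies between the protein-coding genes (median -0.07) and the long intergenic RNAs (median -0.85).

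The share of rises was larger among members of higher level, a difference that was not tested. Over all genes tested, at any level, 33.1% rose and 37.5% fell. All genes were not split by level, so the difference cannot be called particular to these members. Of the 30 tested members with a mean of at least 5 CPM over the 10 libraries, 20 rose and 6 fell, and the median was 0.80 (log2). Between 1 and 5 CPM, 30 of 86 rose and 35 fell, and below 1 CPM, 10 of 76 rose and 33 fell. Each gene of the table had at least 5 counts in all libraries of 1 group. In fraction 92, 3 counts are 0.880 CPM, against 0.0912 to 0.125 CPM in the inputs. Low members could thus enter more easily through the inputs, where those that fell were higher. The counts in the lowest class, and the change of the shares with level, are therefore a description of what was tested. The same limit holds for other gene classes of low level.

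The 8 named antisense RNAs with the most counts, not adjusted for length, held rises, falls and small differences. First in CPM was 4933431E20Rik (chr3:107888850-107896213, minus strand), which starts inside Gstm5, a mu-class glutathione transferase gene. Its levels, given here and below in the order of the numbers 88, 92, 976, 981 and 982, were 255, 261, 233, 251 and 266 CPM in the astrocyte fractions, against 104, 116, 109, 100.6 and 104 CPM in the inputs. The groups did not overlap, and its log2 fold change was 1.25 ± 0.05 (adjusted p = 2.56e-09, ± SE). Brip1os (chr11:86201370-86304443, plus strand), whose span encloses the Integrator subunit gene Ints2, had 39.9, 35.8, 35.2, 40.1 and 32.4 CPM in the astrocyte fractions, against 15.7, 13.3, 14.5, 13.7 and 13.9 CPM in the inputs. All 5 fractions lay above all 5 inputs, by a log2 fold change of 1.36 ± 0.07 (adjusted p = 3.06e-08, ± SE). A830082K12Rik (chr13:78198017-78279391, plus strand) starts inside Nr2f1, which encodes the nuclear receptor COUP-TFI. It had 29.7, 32, 27, 33.7 and 29.2 CPM in the astrocyte fractions, against 9.88, 16.3, 9.29, 14 and 15.3 CPM in the inputs, again without overlap, and a log2 fold change of 1.22 ± 0.17 (adjusted p = 1.46e-05, ± SE).

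Kcnq1ot1 (chr7:143212155-143296549, minus strand), the paternally expressed RNA that silences genes of the Kcnq1 imprinted domain in cis, fell. It had 59.997, 73.1, 57.1, 60.1 and 56.5 CPM in the astrocyte fractions, against 207, 202, 209, 186 and 190.3 CPM in the inputs. Every fraction was below every input, and the log2 fold change was -1.71 ± 0.07 (adjusted p = 1.1e-09, ± SE). No protein-coding partner of Kcnq1ot1 was in the table. B230334C09Rik (chr3:158067186-158076112, minus strand), convergent with Lrrc40, had 10.2, 22.9, 14.2, 8.38 and 16.5 CPM in the astrocyte fractions, against 66.5, 139, 81.6, 83.8 and 84.7 CPM in the inputs. Input 92 was the highest library, the groups did not overlap, and the log2 fold change was -2.68 ± 0.31 (adjusted p = 5.66e-06, ± SE).

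Gt(ROSA)26Sor, transcribed from the ROSA26 locus in which transgenes such as the NuTRAP cassette are commonly placed, fell as well. It had 18, 29.3, 19.1, 20.2 and 17.5 CPM in the astrocyte fractions, against 33.4, 36.4, 31.2, 34.8 and 35 CPM in the inputs. Fraction 92 was the highest of its group and still below every input, and the log2 fold change was -0.76 ± 0.14 (adjusted p = 0.000206, ± SE). The labels do not say where the cassette of these mice sits. A cassette in this locus could change what these counts measure, and that was not tested.

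Tug1 and Rab10os had the smallest log2 fold changes of the 8. Tug1, a long noncoding RNA first described in retina, averaged 96.2 ± 8.76 CPM in the astrocyte fractions and 83 ± 4.22 CPM in the inputs (SD, n = 5 each), and the groups overlapped. Its log2 fold change was 0.21 ± 0.07 (adjusted p = 0.0239, ± SE), past the threshold, but 0.20 with an adjusted p of 0.0554 without input 88, 0.20 with 0.0563 without input 982, and -0.070 when libraries were scaled to total counts. Rab10os, convergent with the small GTPase gene Rab10, averaged 44.8 ± 3.86 CPM in the astrocyte fractions and 44.4 ± 6.33 CPM in the inputs (SD, n = 5 each) with a log2 fold change of 0.02 ± 0.11 (adjusted p = 0.901, ± SE). That value was -0.26 with an adjusted p of 0.0343 under scaling to total counts, so its direction depends on the scaling.

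**Figure D2:**
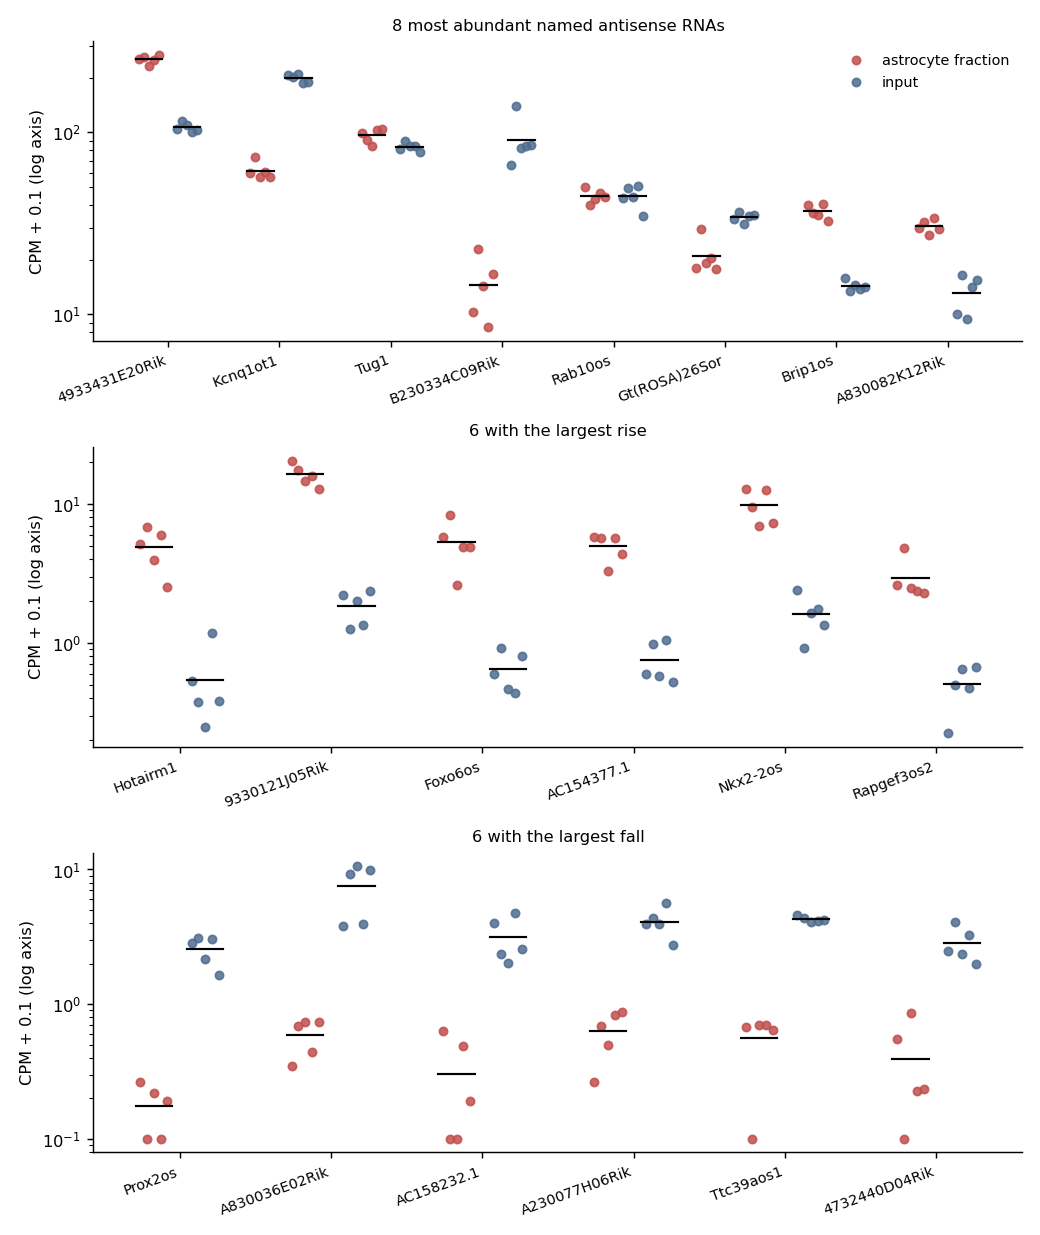
Level of each named antisense RNA in each library (y axis, CPM with 0.1 added, log axis), with astrocyte fractions in red to the left of inputs in blue for each gene, points for the 5 libraries of a group and black bars for their mean. Tug1 and Rab10os overlap between the groups. Each of the 12 RNAs in the lower panels shows 5 fractions on one side of 5 inputs, which was a condition for choosing them. Fraction 92 is at 0 for Ttc39aos1, AC158232.1, 4732440D04Rik and Prox2os.

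Among members called with a mean of at least 1 CPM and groups that did not overlap, the 6 largest rises began with Hotairm1, known from human myeloid cells. It had 5.06, 6.75, 3.83, 5.9 and 2.44 CPM in the astrocyte fractions, against 0.435, 0.273, 0.147, 1.08 and 0.283 CPM in the inputs, and its log2 fold change was 3.21 ± 0.47 (adjusted p = 2.79e-05, ± SE). The lowest fraction lay above the highest input.

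9330121J05Rik (chr3:62337524-62340532, minus strand) starts within the first part of Arhgef26, which encodes a guanine nucleotide exchange factor. It had 20.4, 17.6, 14.6, 15.8 and 12.8 CPM in the astrocyte fractions, against 2.11, 1.15, 1.92, 1.25 and 2.27 CPM in the inputs. Its log2 fold change was 3.16 ± 0.22 (adjusted p = 3.63e-08, ± SE) and that of Arhgef26 was 3.11 ± 0.11 (adjusted p = 1.22e-10, ± SE). The antisense RNA is 3009 exon bases long in GENCODE M21, and 72.7% of them lie across from exons of other genes, so without a known strand setting its counts and those of Arhgef26 cannot be told apart. Nkx2-2os (chr2:147184083-147331681, plus strand) is divergent with Nkx2-2, the homeobox factor of the ventral neural tube and of oligodendrocyte differentiation. It had 12.7, 9.39, 6.86, 12.6 and 7.14 CPM in the astrocyte fractions, against 2.3, 0.82, 1.55, 1.66 and 1.24 CPM in the inputs, without overlap, and rose by a log2 fold change of 2.62 ± 0.30 (adjusted p = 2.94e-06, ± SE). Nkx2-2 itself rose by a log2 fold change of 1.34 ± 0.14 (adjusted p = 1.63e-06, ± SE). The 8 oligodendrocyte markers, all of which fell, summed to 981 to 1365 CPM in the fractions, against 6595 to 7965 CPM in the inputs. Any relation of these cells to the rise of Nkx2-2os and Nkx2-2 was not tested.

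Rapgef3os2, divergent with the cAMP-activated exchange factor gene Rapgef3 (Epac1), had 2.53, 4.69, 2.39, 2.27 and 2.17 CPM in the astrocyte fractions, against 0.124, 0.395, 0.553, 0.374 and 0.566 CPM in the inputs. The groups were apart, with fraction 92 the highest, and the log2 fold change was 2.49 ± 0.36 (adjusted p = 2.57e-05, ± SE). Of the exon bases of Rapgef3os2 38.2% lie across from other exons and 32.0% are shared with other genes of its own strand, so its counts are uncertain. Foxo6os, which had no partner in the table, had 5.67, 8.21, 2.51, 4.83 and 4.79 CPM in the astrocyte fractions, against 0.497, 0.82, 0.368, 0.333 and 0.708 CPM in the inputs, a rise of 3.02 ± 0.35 (adjusted p = 3.95e-06, ± SE) with no overlap. AC154377.1 lies inside Dzip1, a gene of the primary cilium, and had 5.67, 5.57, 3.19, 5.56 and 4.25 CPM in the astrocyte fractions, against 0.497, 0.881, 0.479, 0.956 and 0.425 CPM in the inputs. It rose by a log2 fold change of 2.74 ± 0.27 (adjusted p = 1.91e-06, ± SE), with all fractions above all inputs.

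The 6 largest falls were led by Prox2os (chr12:85086374-85088228, plus strand), convergent with the homeobox gene Prox2. It had 0.163, 0, 0.12, 0 and 0.0904 CPM in the astrocyte fractions, against 2.73, 3.01, 2.06, 2.95 and 1.56 CPM in the inputs. It was at 0 in fractions 92 and 981 and near the limit of 3 counts in the rest, and the log2 fold change was -3.89 ± 0.38 (adjusted p = 1.57e-06, ± SE). A830036E02Rik, divergent with the corneal keratin gene Krt12, had 0.245, 0.587, 0.638, 0.342 and 0.633 CPM in the astrocyte fractions, against 3.7, 9.15, 10.4, 3.82 and 9.81 CPM in the inputs. It fell, with a log2 fold change of -3.75 ± 0.41 (adjusted p = 2.3e-06, ± SE), and so did Krt12, at -2.34 ± 0.64 (adjusted p = 0.00186, ± SE). Of the exon bases of Krt12 54.4% lie across from other exons, so without a known strand setting its counts are uncertain. AC158232.1, inside the endocytic scaffold gene Itsn2, had 0.53, 0, 0, 0.385 and 0.0904 CPM in the astrocyte fractions, against 3.91, 2.25, 1.92, 4.61 and 2.48 CPM in the inputs. Its log2 fold change was -3.31 ± 0.65 (adjusted p = 0.000172, ± SE), and no fraction reached the lowest input. Itsn2 itself was at -0.24 with an adjusted p of 0.07, not called, and was called in 5 of the alternatives, among them the replicate block (-0.23, adjusted p 0.0222) and the fit without fraction 92 (-0.31, adjusted p 0.0050).

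A230077H06Rik, divergent with the immunoglobulin-domain gene Vstm2b, had 0.163, 0.587, 0.399, 0.727 and 0.768 CPM in the astrocyte fractions, against 3.82, 4.22, 3.83, 5.49 and 2.65 CPM in the inputs, for a log2 fold change of -2.77 ± 0.37 (adjusted p = 1.22e-05, ± SE). Ttc39aos1, without a partner in the table, had 0.571, 0, 0.598, 0.598 and 0.542 CPM in the astrocyte fractions, against 4.5, 4.25, 3.98, 4.03 and 4.11 CPM in the inputs, for a log2 fold change of -2.75 ± 0.60 (adjusted p = 1.12e-06, ± SE). The inputs of Ttc39aos1 lay closely together, and 4 of its 5 fractions did too, with fraction 92 at 0. 4732440D04Rik, inside the autophagy gene Rb1cc1 (FIP200), had 0.449, 0, 0.757, 0.128 and 0.136 CPM in the astrocyte fractions, against 2.39, 3.95, 2.25, 3.16 and 1.88 CPM in the inputs, for a log2 fold change of -2.72 ± 0.61 (adjusted p = 0.000124, ± SE). In each of these 3 RNAs the groups did not overlap. Rb1cc1 fell, with a log2 fold change of -0.73 ± 0.11 (adjusted p = 4.08e-05, ± SE). The falls in this set were of RNAs that were low in the fractions, with 0.0746 to 0.529 CPM on average, so the size of each fold depends on few counts.

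Of 229 partner genes tested, 98 (42.8%) rose and 81 (35.4%) fell, beside 33.1% and 37.5% of all genes tested, and their median log2 fold change was 0.11. Without the partners of the single antisense RNA BC037039, 82 rose and 80 fell. Both genes were tested in 218 pairs. Across these pairs the log2 fold changes of antisense RNA and partner had a Pearson r of 0.46 and a Spearman rho of 0.44, given as a description because the pairs share the 10 libraries. Both genes were called in 128 pairs: in 88 (68.75%) they moved the same way, 50 up and 38 down, and in 40 they moved apart. Without BC037039 there were 34 pairs up and 38 down. In 19 of the 40 the antisense RNA rose and the partner fell, and in 21 the reverse held. Pairs of the Gm-named antisense RNAs had an r of 0.59 over 171 pairs. With the fold change taken within each number, r was 0.47 for 88, 0.29 for 92, 0.42 for 976, 0.43 for 981 and 0.42 for 982, lowest where the fraction was the shallow library.

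The pairs were then split by geometry. The 107 tested divergent pairs had an r of 0.64, and 49 of the 67 with both genes called moved the same way. The 57 pairs with the antisense RNA inside its partner had an r of 0.32, which was 0.08 over the 38 pairs left after those of BC037039 were set aside. Setting them aside was chosen after seeing the data. Convergent pairs had an r of 0.20 over 43, with 15 of 24 called pairs moving the same way. The 11 pairs with the partner inside the antisense RNA had an r of 0.01. These values were not tested against each other. Among divergent pairs r was 0.37 where the starts lay less than 500 bases apart (34 pairs), 0.68 between 500 and 2000 bases (55 pairs) and 0.83 at 2000 bases and more (18 pairs). The median distance between the starts of divergent pairs was 795 bases. Among the Gm-named antisense RNAs, r was 0.74 over 77 divergent pairs and 0.59 over 45 pairs with the antisense RNA inside its partner. It was 0.27 over 41 convergent pairs and 0.65 over 8 with the partner inside the antisense RNA. The low r of members inside their partners was thus not seen in that class, and the difference was not tested.

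**Figure D3:**
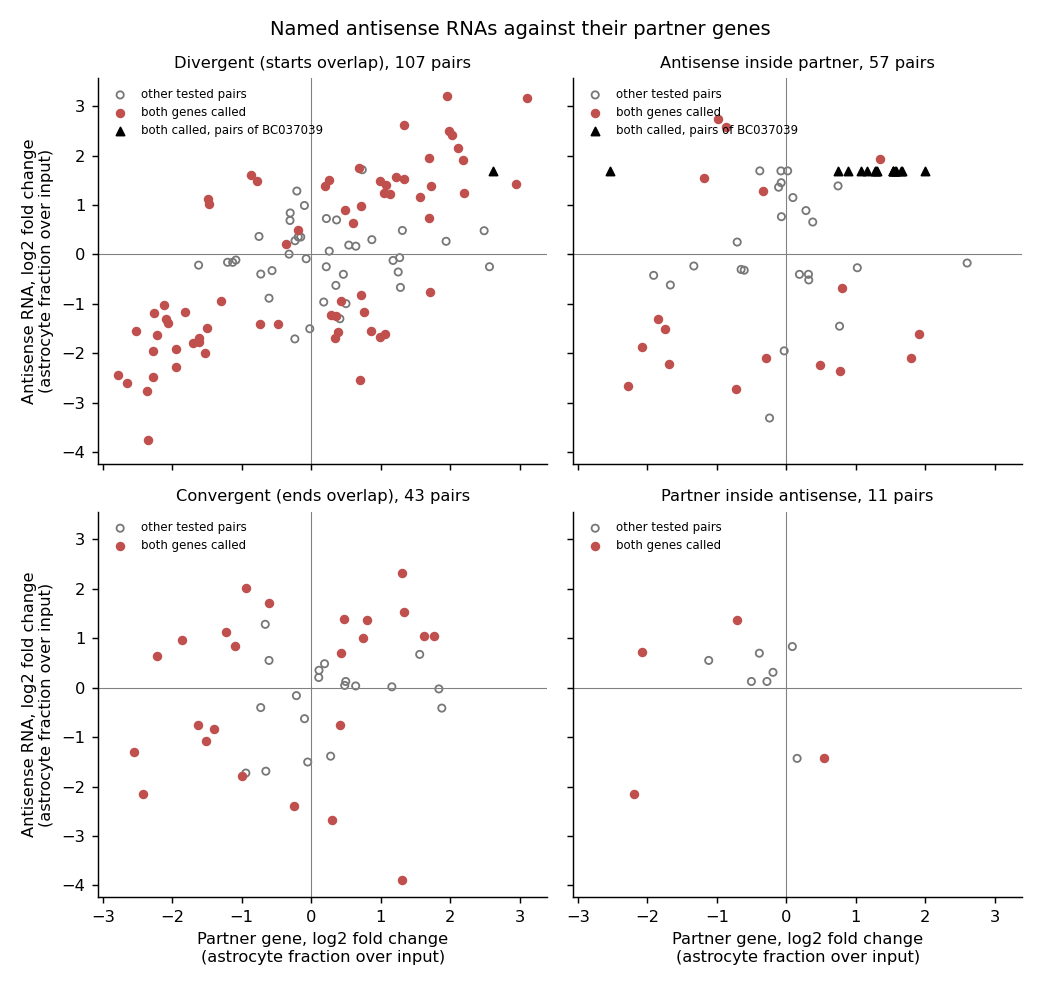
Log2 fold change of each antisense RNA (y axis) against that of its partner (x axis), astrocyte fraction over input, for the 218 tested pairs in 4 panels by geometry. Filled red points are pairs with both genes called, open points the other tested pairs, and black triangles called pairs of BC037039, which share 1 antisense value. The divergent panel runs along the diagonal (r = 0.64), while the convergent panel (r = 0.20) fills all 4 quadrants.

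Antisense pairs share sequence, and the sources used here do not give the strand setting of the counting. Reads from shared exon bases cannot be assigned to 1 gene with certainty. In GENCODE M21 the median member had 14.3% of its exon bases across from exons of another gene, 20 of 205 had over 50%, and 34 had none. Pairs that shared no exon base had an r of 0.51 over 46 pairs, and 0.43 over 27 once those of BC037039 were set aside. Tested or not, 49 pairs shared none, and in 29 of these the antisense RNA lay inside its partner. Only 6 of the 115 divergent pairs were among them. The values without shared bases therefore cannot show whether shared reads affect the r of divergent pairs. Pairs sharing up to 10%, 10 to 30% and over 30% of the antisense exon bases had an r of 0.42, 0.47 and 0.39.

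Whether antisense RNA and partner moved by different amounts was tested on their log2 ratio in each library, with limma over all 389 pairs of antisense RNAs with coding genes. Of those 389, 44.2% were called, 20.1% with a higher and 24.2% with a lower ratio in the fraction. Among the 218 pairs of named members 42 had a higher ratio and 56 a lower ratio, shares close to that background. The 389 pairs include these 218, which favours such closeness. Of the 171 pairs of Gm-named antisense RNAs, 36 had a higher ratio and 38 a lower ratio.

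Several divergent pairs rose together. A830082K12Rik and Nr2f1 rose by log2 fold changes of 1.22 and 1.14, and Sp3os and Sp3 by 1.24 and 1.04, Sp3 being a factor that binds GC boxes. The fraction minus input difference of the log2 ratio was 0.12 ± 0.13 (adjusted p = 0.505, ± SE) for the first pair and 0.11 ± 0.27 (adjusted p = 0.772, ± SE) for the second. Rapgef3os2, whose counts are uncertain as given above, and Rapgef3 rose by log2 fold changes of 2.49 and 1.99. Their ratio difference was 0.64 ± 0.42 (adjusted p = 0.247, ± SE). None of these 3 ratio differences passed the threshold, which does not show that the members of a pair moved alike.

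In other divergent pairs the amounts differed. Gstm5, with 422, 440.4, 374, 467 and 411 CPM in the astrocyte fractions, against 90.3, 84.8, 97.9, 91.4 and 94.7 CPM in the inputs, rose by a log2 fold change of 2.20 ± 0.06 (adjusted p = 9.36e-11, ± SE), more than 4933431E20Rik. The log2 ratio of antisense RNA to partner was -0.90 to -0.62 in the astrocyte fractions, against 0.13 to 0.45 in the inputs, and its difference was -0.95 ± 0.08 (adjusted p = 1.26e-07, ± SE). Nkx2-2os rose more than Nkx2-2, with a ratio difference of 1.29 ± 0.31 (adjusted p = 0.00343, ± SE). Per kilobase of exon, Nkx2-2os was at 22.4% of the level of Nkx2-2 in the fraction and 9.01% in the input.

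Among pairs that fell together was a gene of neurons. Pcsk2os1 had 0.693, 2.93, 1.4, 0.385 and 1.08 CPM in the astrocyte fractions, against 3.82, 4.65, 4.5, 5.32 and 4.04 CPM in the inputs, and fell, with a log2 fold change of -1.96 ± 0.46 (adjusted p = 0.000467, ± SE). Pcsk2, the prohormone convertase of neurons and endocrine cells, had 43.3, 106, 74.9, 52.5 and 67.8 CPM in the astrocyte fractions, against 250.3, 455, 276, 337 and 339 CPM in the inputs, and fell, with a log2 fold change of -2.27 ± 0.27 (adjusted p = 7.48e-06, ± SE). In both genes fraction 92 was the highest of the fractions and below every input. The ratio difference was 0.31 ± 0.31 (adjusted p = 0.439, ± SE). The 10 neuron markers summed to 1092 to 1478 CPM in the fractions, against 5689 to 6735 CPM in the inputs, and their part in these falls was not tested. Prox1os and the homeobox gene Prox1 fell, with log2 fold changes of -1.92 and -1.94, as did A230077H06Rik and Vstm2b with -2.77 and -2.36. The convergent Zfhx2os and the zinc finger homeobox gene Zfhx2 fell with log2 fold changes of -2.14 and -2.43. Of the exon bases of Zfhx2os 73.1% lie across from other exons, and 63.0% are shared with other genes of its own strand. Its counts are therefore uncertain. Zfp335os fell, with a log2 fold change of -1.42 ± 0.40 (adjusted p = 0.000883, ± SE), and so did its partner Zfp335, a zinc finger gene of neural progenitors, at -0.74 ± 0.18 (adjusted p = 0.00107, ± SE). Their ratio difference was -0.95 ± 0.36 (adjusted p = 0.045, ± SE).

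The 6 pairs called in opposite directions with the largest gap were spread over all geometries except partner inside antisense, and 5 of them are described here. Choosing pairs by opposite calls and gap favours a large ratio difference, so their ratios are a description and not a separate result. Prox2os fell while Prox2, with 4.57, 5.57, 3.83, 6.2 and 5.06 CPM in the astrocyte fractions, against 1.86, 2.28, 2.62, 1.87 and 1.2 CPM in the inputs, rose by a log2 fold change of 1.31 ± 0.22 (adjusted p = 0.000219, ± SE). Per kilobase of exon the antisense RNA was at 5.15% of Prox2 in the fractions and 436% in the inputs, and the ratio difference was -5.47 ± 0.50 (adjusted p = 3.63e-07, ± SE). Exon bases across from other exons made up 56.8% in Prox2os, 70.7% in BC037039, 60.2% in AC154377.1, 42.3% in 9330171B17Rik and 7.67% in 1700034H15Rik. With the strand setting unknown, levels and ratios of pairs with a large share are uncertain.

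9330171B17Rik lies inside Kif7, a kinesin of the ciliary tip in hedgehog signalling. It had 0.53, 0, 0.319, 0.427 and 0.949 CPM in the astrocyte fractions, against 2.39, 1.58, 2.39, 1.5 and 0.779 CPM in the inputs, and fraction 982 overlapped input 982. Its log2 fold change was -1.62 ± 0.68 (adjusted p = 0.00321, ± SE), while Kif7 rose by a log2 fold change of 1.91 ± 0.15 (adjusted p = 4.89e-07, ± SE). Kif7 and Dzip1 are both genes of cilia, but Dzip1 fell, with a log2 fold change of -0.98 ± 0.11 (adjusted p = 1.76e-06, ± SE), while its antisense RNA AC154377.1 rose. The log2 ratio of AC154377.1 to Dzip1 was -3.54 to -3.15 in the astrocyte fractions, against -7.48 to -6.60 in the inputs.

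1700034H15Rik is divergent with Slc30a1, the zinc exporter ZnT1, with starts 760 bases apart. It had 0.326, 0.293, 0.439, 0.256 and 0.452 CPM in the astrocyte fractions, against 1.65, 3.59, 1.4, 3.41 and 2.55 CPM in the inputs, and fell, with a log2 fold change of -2.54 ± 0.29 (adjusted p = 1.33e-05, ± SE). Slc30a1 had 51, 49, 48.3, 47.2 and 40.9 CPM in the astrocyte fractions, against 31.5, 26.3, 29.96, 29.8 and 26.6 CPM in the inputs, and rose by a log2 fold change of 0.71 ± 0.07 (adjusted p = 8.16e-06, ± SE). Both genes separated the groups without overlap, in opposite directions. Zbtb11os1 and the zinc finger gene Zbtb11 showed the reverse, with starts 734 bases apart. Zbtb11os1 had 11.3, 9.98, 13.4, 14.4 and 12 CPM in the astrocyte fractions, against 5.34, 5.8, 7.001, 6.07 and 6.19 CPM in the inputs, and rose by a log2 fold change of 1.02 ± 0.11 (adjusted p = 1.99e-05, ± SE). Zbtb11 had 19.9, 16.7, 18.2, 21.1 and 19.2 CPM in the astrocyte fractions, against 57.1, 59.1, 46.6, 63.5 and 41.5 CPM in the inputs, and fell, with a log2 fold change of -1.48 ± 0.13 (adjusted p = 1.96e-07, ± SE). Per kilobase of exon the antisense RNA was at 355% of Zbtb11 in the fraction and 62.6% in the input.

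**Figure D4:**
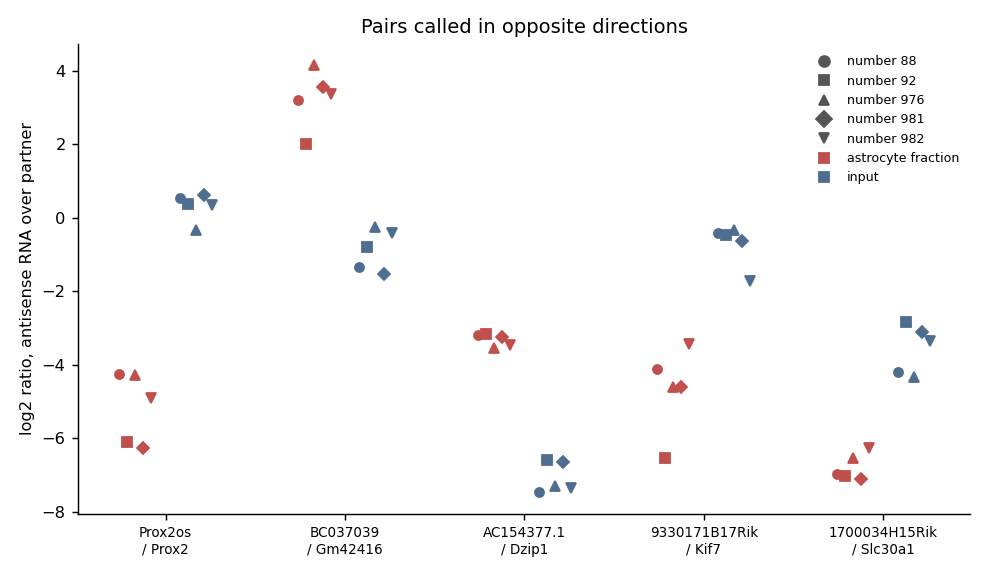
Log2 ratio of antisense RNA over partner (y axis) in each of the 10 libraries for 5 of the 6 pairs called in opposite directions with the largest gap, astrocyte fractions in red to the left of inputs in blue, one marker shape per library number. In all 5 pairs shown the 5 fractions lie on one side of the 5 inputs, below them for Prox2os, 9330171B17Rik and 1700034H15Rik and above them for BC037039 with Gm42416 and for AC154377.1. Opposite calls and a large gap were the conditions for choosing these pairs, and they favour such a separation.

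Antisense RNAs that bear their partner's symbol numbered 39, and 34 of these pairs were tested. Their fold changes had an r of 0.38, and 13 of 21 called pairs moved the same way. Zeb2os, inside the repressor gene Zeb2, had 9.67, 10.9, 5.86, 10.003 and 4.66 CPM in the astrocyte fractions, against 3.07, 2.73, 3.1, 4.03 and 2.55 CPM in the inputs, and rose by a log2 fold change of 1.36 ± 0.26 (adjusted p = 0.00027, ± SE). The groups of Zeb2os did not overlap, while those of Zeb2 did, at 46, 51.6, 39.4, 59.2 and 51.4 CPM in the astrocyte fractions, against 51.7, 50.6, 59.6, 47.3 and 57.5 CPM in the inputs. The log2 fold change of Zeb2 was -0.11 ± 0.12 (adjusted p = 0.38, ± SE), 0.042 without fraction 976, 0.18 without the numbers 976 and 982, and -0.40 with an adjusted p of 0.0035 under scaling to total counts, so its direction and call depend on the setting. The ratio difference of the pair was 1.44 ± 0.25 (adjusted p = 0.000261, ± SE).

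Mccc1os starts next to Mccc1, a subunit gene of an enzyme of leucine breakdown. It averaged 2.38 ± 0.514 CPM in the astrocyte fractions and 3.95 ± 0.642 CPM in the inputs (SD, n = 5 each) and fell, with a log2 fold change of -0.76 ± 0.17 (adjusted p = 0.00619, ± SE), whereas Mccc1 averaged 95.4 ± 7.89 CPM in the astrocyte fractions and 29 ± 4.29 CPM in the inputs (SD, n = 5 each) and rose by a log2 fold change of 1.71 ± 0.11 (adjusted p = 1.05e-08, ± SE). Without the numbers 976 and 982 the log2 fold change of Mccc1os was -0.62 with an adjusted p of 0.0971. Mccc1os runs on into the end of Ccdc144b, on the strand of Mccc1. Ccdc144b fell, with a log2 fold change of -1.63 ± 0.46 (adjusted p = 0.00112, ± SE), but had too few counts to be tested without input 88 or input 92. Rab10, convergent with Rab10os, averaged 306 ± 42.5 CPM in the astrocyte fractions and 136 ± 7.75 CPM in the inputs (SD, n = 5 each) and rose by a log2 fold change of 1.16 ± 0.10 (adjusted p = 1.56e-07, ± SE), with a ratio difference of -1.14 ± 0.14 (adjusted p = 8.17e-06, ± SE).

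Tomm6os, across from the mitochondrial import subunit gene Tomm6, averaged 3.26 ± 0.845 CPM in the astrocyte fractions and 4.26 ± 0.647 CPM in the inputs (SD, n = 5 each), with a log2 fold change of -0.40 ± 0.22 (adjusted p = 0.134, ± SE), and was called lower with total count scaling (-0.68, adjusted p 0.0149). Tomm6 averaged 55.5 ± 4.59 CPM in the astrocyte fractions and 40.4 ± 3.1 CPM in the inputs (SD, n = 5 each) and rose by a log2 fold change of 0.46 ± 0.07 (adjusted p = 0.00022, ± SE), a call that was lost with total count scaling (0.18, adjusted p 0.102). The coding model Gm21981 shares 72.8% of its exon bases with other genes of its own strand, so its counts and those of Tomm6 are uncertain. Ccdc142os averaged 3.1 ± 0.504 CPM in the astrocyte fractions and 1.24 ± 0.362 CPM in the inputs (SD, n = 5 each) and rose by a log2 fold change of 1.28 ± 0.20 (adjusted p = 0.000372, ± SE). Its partner Ccdc142 showed a log2 fold change of -0.66 ± 0.75 (adjusted p = 0.0818, ± SE), but was called lower by DESeq2 (-0.75, adjusted p 0.0476) and with total count scaling (-0.92, adjusted p 0.0239). Ccdc142 shares 72.1% of its exon bases with same-strand genes, so its counts are uncertain. The other partner Gm42688, which shares 82.2% of its exon bases with same-strand genes, showed a log2 fold change of -0.34 ± 0.12 (adjusted p = 0.0323, ± SE), a call lost on leaving out any 1 of fractions 981 and 982 and inputs 976, 981 and 982 (adjusted p 0.0621 to 0.0928), or the numbers 976 and 982 together (0.242).

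**Figure D5:**
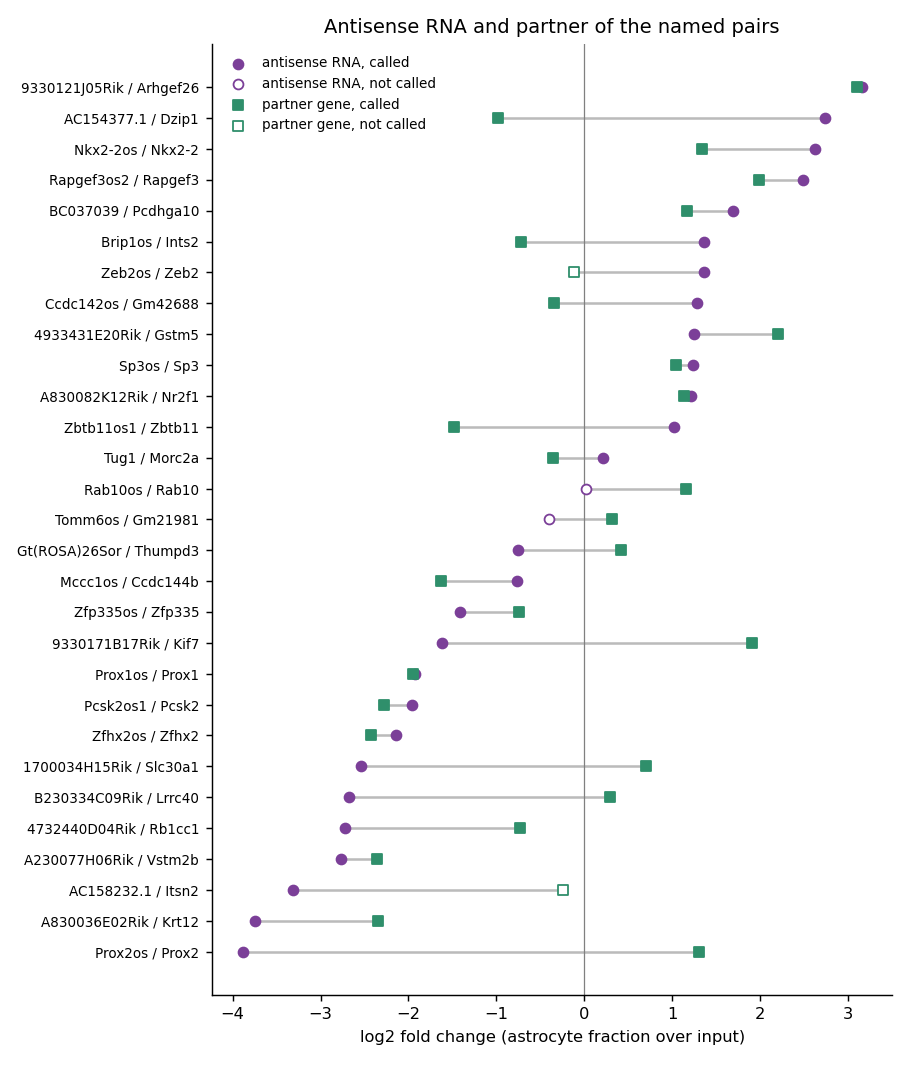
Log2 fold change of astrocyte fraction over input (x axis) for the named antisense RNAs with a tested partner that is reported here (purple circles) and the partner with which it has the longest overlap (green squares), joined by a line, sorted by the antisense value with the highest on top. Filled symbols passed an adjusted p of 0.05 and open symbols did not. 9330121J05Rik with Arhgef26 and Prox1os with Prox1 have near-equal values, and Prox2os with Prox2 the widest gap.

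Gt(ROSA)26Sor fell and its convergent partner Thumpd3 showed a log2 fold change of 0.41 ± 0.16 (adjusted p = 0.0253, ± SE), called but with overlapping groups and lost without input 88, 981 or 982 (adjusted p 0.0535 to 0.0579) and with total count scaling (0.14, adjusted p 0.455). The partner of Tug1 is Morc2a, a gene of chromatin silencing that starts 179 bases away. Its log2 fold change was -0.36 ± 0.11 (adjusted p = 0.0108, ± SE), and -0.25 with an adjusted p of 0.0633 without fraction 976. Ints2, inside the span of Brip1os, averaged 8.66 ± 0.991 CPM in the astrocyte fractions and 14.2 ± 3.07 CPM in the inputs (SD, n = 5 each) and fell, with a log2 fold change of -0.71 ± 0.16 (adjusted p = 0.0013, ± SE), opposite to Brip1os. Lrrc40 averaged 21.7 ± 1.6 CPM in the astrocyte fractions and 17.6 ± 1.66 CPM in the inputs (SD, n = 5 each) with a log2 fold change of 0.29 ± 0.08 (adjusted p = 0.0154, ± SE), called with overlapping groups but 0.0068 with an adjusted p of 0.938 under total count scaling.

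A list of developmental transcription factors supplied 11 pairs. In 10 of them both genes were tested. Both genes rose in 5 pairs, those of Nr2f1, Pax6 and Irx3 and the 2 of Nkx2-2, and both fell in 2 pairs, those of Zfhx2 and Dlx6. Of all 75 factors of the list that were tested, 32 rose and 31 fell, so 84.0% were called, beside 70.6% of all genes. In 1 pair they moved apart, and in 2 only 1 gene was called. Pax6os1 rose by a log2 fold change of 1.95 ± 0.42 (adjusted p = 0.000489, ± SE) and Pax6, a paired-box factor of neural progenitors and astrocytes, by 1.70 ± 0.25 (adjusted p = 1.77e-05, ± SE). Irx3os, across from the Iroquois factor gene Irx3, had 2.24, 1.17, 2.19, 3.38 and 2.76 CPM in the astrocyte fractions, against 0.901, 0.577, 0.221, 0.956 and 0.319 CPM in the inputs, and rose by a log2 fold change of 1.90 ± 0.43 (adjusted p = 0.00048, ± SE), and Irx3 rose by a log2 fold change of 2.19 ± 0.19 (adjusted p = 1.18e-07, ± SE). Dlx6os1 and Dlx6, a homeobox gene of forebrain interneurons, had log2 fold changes of -2.15 ± 0.71 (adjusted p = 0.00337, ± SE) and -2.20 ± 0.98 (adjusted p = 0.012, ± SE), with overlapping groups in both.

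Emx2os and the homeobox gene Emx2 were called in opposite directions, at -1.17 ± 0.79 (adjusted p = 0.0227, ± SE) and 0.76 ± 0.28 (adjusted p = 0.019, ± SE). The call of Emx2os was lost without fraction 976 (-1.10, adjusted p 0.0524), fraction 981 (-1.08, 0.0550) or input 976 (-0.83, 0.0761), or both numbers 976 and 982 (-0.96, 0.0892), and both genes overlapped between the groups. The call of Emx2 was lost with total count scaling (0.48, adjusted p 0.124). 2700069I18Rik showed a log2 fold change of -0.22 ± 0.76 (adjusted p = 0.761, ± SE), of either sign when fraction 976 was left out or kept (0.23 without it), whereas its divergent partner Zfhx4 fell, with a log2 fold change of -1.62 ± 0.15 (adjusted p = 1.98e-07, ± SE). Dlx1as was too low to be tested.

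BC037039 (chr18:37805718-37807922, minus strand) lies across from 20 coding models, 19 of them protocadherin gamma genes that share their last exons, so their counts are not independent. It had 4.49, 2.64, 4.23, 5.9 and 3.57 CPM in the astrocyte fractions, against 0.963, 1.67, 1.47, 0.665 and 1.56 CPM in the inputs, with no overlap, and rose by a log2 fold change of 1.69 ± 0.30 (adjusted p = 0.000148, ± SE). Pcdhga10, 1 of the models that span BC037039 whole, averaged 27.1 ± 6.92 CPM in the astrocyte fractions and 11.8 ± 1.96 CPM in the inputs (SD, n = 5 each) and rose by a log2 fold change of 1.17 ± 0.20 (adjusted p = 5.65e-05, ± SE). Of the 20 models 16 rose, 3 passed in neither direction and 1 fell, and their log2 fold changes ran from -2.53 to 2.62. The 1 that fell was Gm42416, a model whose exon bases are all shared with other genes of its strand, with 0.408, 0.587, 0.159, 0.427 and 0.271 CPM in the astrocyte fractions, against 2.58, 2.95, 1.77, 2.08 and 2.09 CPM in the inputs.

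Among the 24 members without a partner 22 were tested, of which 5 (22.7%) rose and 10 (45.5%) fell, beside 33.1% and 37.5% of all genes, with a median log2 fold change of -0.68. Beside Kcnq1ot1, Foxo6os and Ttc39aos1, C130021I20Rik was chosen after its values were seen. It had 4.69, 5.87, 1.28, 7.1 and 1.04 CPM in the astrocyte fractions, against 19.6, 20.8, 6.85, 38 and 7.36 CPM in the inputs. Both groups were low in 976 and 982, the libraries with choroid plexus transcripts, the groups overlapped, and the log2 fold change was -2.20 ± 0.73 (adjusted p = 0.0117, ± SE).

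Levels per kilobase of exon were mostly below those of the partner. The antisense RNA lay below its partner in 200 of 231 pairs in the fraction and in 203 of 231 in the input. The median antisense level was 13.4% of the partner's level in the fraction and 12.8% in the input. In the fraction 23 pairs were below 1%, against 9 in the input.

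A RefSeq promoter window within 100 bases of the table's start was available for 77 of the 205 members and 115 of the 230 partners. The GC box was in 54.5% of the members' windows, in 60.9% of the partners' and in 63.5% of those of all genes of the table with such a window. Members that rose had it in 78.6% of 28 windows and members that fell in 40% of 25. Those that passed in neither direction had it in 47.6% of 21. The median number of CpG dinucleotides per 300-base window was 20.5 for members that rose and 13 for members that fell. It was 20 for members that passed in neither direction and 20 for all genes of the table. All genes were not split by direction, so these differences cannot be called particular to the members. These shares are a description and were not tested.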

How the data were processed

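PolyA RNA was sequenced in 5 astrocyte fractions and 5 inputs, with 25 ng of total RNA going into each NEB Ultra II library, per the labels' protocols. The authors deposited 1 table with estimated counts per gene, unscaled, and with normalized log2 values centred on the inputs, which were not used. CASAVA 1.8, DESeq and the build mm10 are named, without roles, per the submitters' processing notes. For aligner, counting tool and strand setting: not given in the sources used here. Every gene had at least 5 counts in all libraries of 1 group, so lower genes were not analysed here. Coordinates are those of the table on mm10. Exon overlap came from GENCODE M21, where 199 of the 205 members have the same coordinates.

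Estimated counts were rounded. edgeR 4.0.16 (R 4.3.3) was run with TMM, filterByExpr with a minimum count of 10, robust quasi-likelihood, Benjamini-Hochberg over 17672 genes, and calls under 0.05. Log2 fold changes are fraction over input with a prior count of 2, and their SE comes from the log2 CPM of the libraries. Ratios were tested with limma 3.58.1 over 389 pairs. The steps were tested on simulated data. The common biological coefficient of variation was 0.229. Intervals are not given for single values, and the limit of 3 counts covers counting error only. Alternatives were RLE and total count scaling, 2 filters, a prior count of 0.5, DESeq2 1.42.0, leaving out libraries, and subsets of pairs.

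Libraries with the same number deviated together, with correlations of 0.189 to 0.493 against a mean of -0.0791 between different numbers, so the number was used as a block in an alternative fit. Named genes were the 8 members with the highest mean CPM, the 6 largest rises and 6 largest falls among called members at 1 CPM or more without overlap, the 6 pairs called in opposite directions with the largest gap, up to 12 members with their partner's symbol, and the partners of all of these, 34 antisense RNAs and 35 partners in all, of which 2 partners are not reported here. The members and lists were chosen with earlier results of these data known.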

Additional observations from a re-analysis of the deposited data

Results flagged for a closer look

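The value of each named antisense RNA and partner gene was compared within the 5 libraries of each group, and 12 of 138 such sets held 1 library far from the other 4. Chance alone marks about 1 in 20 sets. In 7 of the 12 the library apart was fraction 92, which had the lowest depth.

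Among the antisense RNAs, fraction 92 stood above its group for Kcnq1ot1, with 73.1 CPM against 56.5 to 60.1 CPM in the other fractions. The same library was high for Gt(ROSA)26Sor, with 29.3 CPM against 17.5 to 20.2 CPM, and for Rapgef3os2, with 4.69 CPM against 2.17 to 2.53 CPM. It was also high for A230009B12Rik, with 1.17 CPM against 0.239 to 0.452 CPM. For Ttc39aos1 it was low, at 0 CPM against 0.542 to 0.598 CPM, where 3 counts in that library are 0.880 CPM. Input 92 was high for B230334C09Rik, with 139.0 CPM against 66.5 to 84.7 CPM in the other inputs.

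Among the partners, fraction 92 was high for the endocytic gene Itsn2, with 52.5 CPM against 36.8 to 40.7 CPM, and for the autophagy gene Rb1cc1, with 61.9 CPM against 42.3 to 46.1 CPM. Fraction 976 was low for Arhgef26, at 222 CPM against 285 to 305 CPM, and high for Thumpd3, at 34.5 CPM against 20.3 to 23.2 CPM. Input 92 was high for Nkx2-2, at 13.9 CPM against 10.2 to 10.8 CPM. Input 976 was high for Ccdc142, at 1.95 CPM against 1.34 to 1.37 CPM. The part of depth or of choroid plexus transcripts in these values was not tested.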

How the results depend on the processing

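The numbers of named antisense RNAs and partners that rose or fell, and the r over all pairs, stayed within 1.5 times or within their spread under the settings tried, except as given here. Keeping genes with a mean of 1 CPM left 41 antisense RNAs lower, 34 of the Gm-named and 142 of the long intergenic RNAs lower, an r of 0.23 for antisense RNA inside partner and of -0.85 for partner inside antisense RNA, where 5 pairs remained. This geometry had an r of 0.20 with no filter, -0.023 with the replicate block and -0.037 without the numbers 976 and 982. Requiring an overlap of 50% of the antisense span left 41 partners higher and 34 lower and 20 ratios higher and 21 lower, and 1 partner per antisense RNA left 27 ratios higher, since fewer pairs remain. Pairs sharing no exon base had 25 partners higher and 10 lower, 8 ratios higher and 6 lower, a rho of 0.54 and 82.8% of called pairs moving the same way. Without BC037039, an alternative chosen after seeing the data, these pairs had 10 partners higher and 9 lower and 3 ratios higher and 6 lower, a rho of 0.43 and 69.2% of called pairs moving the same way. With both genes at 1 CPM 39 partners were lower. With scaling to total counts the median over all genes was -0.34 (log2), against -0.06 with TMM, and it put Rab10os at -0.26 and Tug1 at -0.070. Rab10os was -0.029 with the filter at 1 CPM, and Zeb2 was 0.18 without the numbers 976 and 982, and the causes were not tested. Leaving out each library in turn gave 55 to 63 antisense RNAs higher and 69 to 80 lower, an r of 0.45 to 0.47 over all pairs, -0.17 to 0.10 for partner inside antisense RNA, -0.055 to 0.11 for Rab10os and -0.18 to 0.042 for Zeb2. The replicate block left 130 of the 134 calls among antisense RNAs and changed no call of the 34 antisense RNAs taken by the rule for named genes, while Itsn2 and Igf2r became called under it. Leaving out the numbers 976 and 982 left 107 of the 134. DESeq2 kept 131 of them. Depth limits the low members most, as 3 counts in fraction 92 are 0.880 CPM and 76 tested members averaged below 1 CPM.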

Other observations

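Some members outside the rule for named genes are given here, chosen after their values were seen. Airn, the imprinted RNA that silences Igf2r on the paternal allele, had 0.979, 0, 0.757, 0.342 and 0.859 CPM in the astrocyte fractions, against 1.34, 1.4, 1.84, 0.707 and 1.31 CPM in the inputs, and the groups overlapped. Its log2 fold change was -0.89 ± 0.72 (adjusted p = 0.0493, ± SE) in edgeR's quasi-likelihood test, a call that was lost on leaving out any 1 of 7 libraries (adjusted p 0.0562 to 0.119), with no filter (0.0546) and without the numbers 976 and 982 (0.221). Igf2r, the mannose 6-phosphate receptor gene, had 21, 13.8, 46, 19.6 and 25.1 CPM in the astrocyte fractions, against 39.6, 43.4, 38.6, 41.3 and 30.2 CPM in the inputs, with a log2 fold change of -0.61 ± 0.30 (adjusted p = 0.0572, ± SE) and fraction 976 above every input. Without fraction 976 Igf2r fell, with a log2 fold change of -0.84 (adjusted p 0.00043), and with the replicate block it was at -0.71 (adjusted p 0.0486).

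Uchl1os, the antisense RNA of the ubiquitin hydrolase gene Uchl1 that is known to raise UCHL1 translation in mouse dopaminergic cells, was too low to be tested. It had 0.0816, 0.293, 0, 0 and 0 CPM in the astrocyte fractions, against 0.248, 0.425, 0.221, 0.79 and 0.389 CPM in the inputs. Uchl1 had 141, 173, 146, 149.8 and 149.7 CPM in the astrocyte fractions, against 683, 756, 751, 782 and 778 CPM in the inputs, and fell, with a log2 fold change of -2.31 ± 0.06 (adjusted p = 7.9e-11, ± SE) and no overlap between the groups.

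Lrp8os2, inside the reelin receptor gene Lrp8, had 0.326, 0, 0.319, 0.47 and 0.181 CPM in the astrocyte fractions, against 1.83, 1.91, 1.58, 2.12 and 2.23 CPM in the inputs, and fell, with a log2 fold change of -2.36 ± 0.49 (adjusted p = 1.24e-05, ± SE). Lrp8 had 93.4, 124, 136, 120.3 and 143 CPM in the astrocyte fractions, against 67.2, 77.2, 79.3, 65.9 and 69.5 CPM in the inputs, and rose by a log2 fold change of 0.78 ± 0.12 (adjusted p = 2.92e-05, ± SE). Neither gene overlapped between the groups. Peak1os, inside the pseudokinase gene Peak1, had 1.14, 3.23, 0.917, 1.07 and 1.54 CPM in the astrocyte fractions, against 0.186, 0.304, 0.0737, 0.291 and 0 CPM in the inputs, and rose by a log2 fold change of 2.57 ± 0.52 (adjusted p = 0.000429, ± SE).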
